A study of Mus musculus with 6 samples.

Results

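The mRNA levels of 6 genes of the RAS to ERK signalling cascade were measured in the hippocampus of mouse pups exposed to air or to hyperoxia. The genes were Hras and Nras, which encode RAS proteins, Braf, which encodes a RAF kinase, Map2k1 and Map2k2, which encode the MEK kinases MEK1 and MEK2, and Mapk3, which encodes the kinase ERK1. They were chosen by gene name, and all 6 were found among the 24935 genes of the deposited table. Nras alone passed the test, which 30.5% of all genes tested passed. Its level was 1.25-fold higher in the libraries named for hyperoxia, and it did not pass without air library 2. The levels of Braf and Map2k2, which were higher, and of Hras, Map2k1 and Mapk3, which were lower, did not pass the test. For Hras, Braf and Mapk3 that result depended on 1 hyperoxia library, which lay on the other side of the air libraries from the remaining 2.

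RAS proteins are small GTPases that switch on when a receptor at the cell surface recruits an exchange factor, and switch off again with the help of GTPase-activating proteins. Active RAS brings RAF kinases to the membrane, RAF phosphorylates MEK, and MEK phosphorylates ERK, which enters the nucleus and changes transcription. In hippocampal neurons this cascade is driven by neurotrophin and glutamate receptors and is needed for long-lasting synaptic plasticity and for memory. Its activity is set by phosphorylation, which RNA levels do not measure.

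The samples were the left hippocampi of 6 C57BL/6 mice at postnatal day 14 (P14), each sequenced as 1 library of polyA RNA with a strand-specific kit. Of these mice, 3 were kept with their dams in room air and 3 were kept with their dams in a normobaric chamber at 85% O2 from P2 to P14. Pups of both sexes entered the study, and the sex of each sequenced pup and the litters they came from are not given in the labels. No allele or transgene was involved. Each library is called here by the group and the number (1 to 3) of its deposited column. The labels tie no column to a single animal. Every direction given here rests on the group in the column names, which the table alone cannot test and which is in doubt. The paper that reported these data gives the mRNA of VGLUT1 and CAMKIIA as increased in hyperoxia-exposed mice. The columns named for hyperoxia hold lower values of both (Slc17a7 and Camk2a). The paper's mRNA changes for MEK1, MEK2 and ERK1, none of them significant there, also have the opposite sign to those given here for Map2k1, Map2k2 and Mapk3. Whether the names of the groups are exchanged was not tested, and if they were, every sign would turn. The values are normalized counts, that is read counts divided by 1 size factor per library. Between 30384052 and 38746972 reads lay on genes per library, and the 6 genes had between 1897 and 8341 reads each in every library. Counting alone gives such values an SD of 0.016 to 0.033 on the log2 scale. In a principal component analysis of all genes tested, the first component (52.7% of the variance) parted the groups, and on the second (19.5%) hyperoxia library 2 lay at 38.7 where hyperoxia libraries 1 and 3 lay at -5.09 and -22.6. Results that rest on that library are given below with and without it.

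The RAS genes are close relatives, so the first question was whether reads from Hras and Nras can be told apart. Both have 570 coding bases, of which 428 (75.1%) are the same at the same position, and the longest identical run is 23 bases. The last 72 coding bases, which encode the membrane-anchoring tail where RAS proteins differ most, are shown 5′ to 3′ from GENCODE M21 transcripts (GRCm38), with capitals at the positions where the 2 genes differ.
Hras coding bases 499 to 570: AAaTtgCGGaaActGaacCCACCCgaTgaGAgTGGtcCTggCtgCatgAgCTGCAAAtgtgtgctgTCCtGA
Nras coding bases 499 to 570: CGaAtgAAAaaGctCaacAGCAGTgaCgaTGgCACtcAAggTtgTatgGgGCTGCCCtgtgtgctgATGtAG
In this tail 35 of 72 bases (48.6%) were the same, against 78.9% in the 498 bases before it. Of the 2754 windows of 75 bases in the longest Hras transcript and the 4396 in that of Nras, 0 occurred in a transcript of any other annotated gene. The same held for the 9654 windows of Braf, the 2362 of Map2k1, the 2331 of Map2k2 and the 1726 of Mapk3. Of the 6 genes, only Braf shared annotated exon sequence with another gene, 146 bases (1.1% of its exonic length) with Ndufb2 on the opposite strand.

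Promoter windows from RefSeq (GRCm38.p6), 250 bases before to 50 bases after the start of the gene, were matched for 5 of the 6 genes and not for Mapk3. They were searched on both strands for the GC box GGGCGG, the cAMP response element TGACGTCA, the ETS motif CCGGAAG and the letters CCAAT and TATAAA. At least 1 GC box was present in each of the 5 windows, with 3 in Hras, 3 in Nras, 1 in Braf, 4 in Map2k1 and 2 in Map2k2, overlapping matches counted, where 35.7% of 32851 windows of this length hold one. GC content of the 5 windows ran from 52.3% (Nras) to 69.0% (Hras and Map2k1), with a median of 52.7% over all windows. The letters CG occurred 19 (Nras) to 34 (Hras) times, against a median of 7. The part of this composition in the GC box counts was not tested. The cAMP response element, the site of CREB, occurred 2 times in the Braf window and not in the other 4 windows, and 1.79% of all windows hold it. CCAAT occurred 1 time in Hras and 2 times in Map2k1 (37.4% of all windows hold it), and the ETS motif (8.86%) and TATAAA (13.6%) matched in none of the 5. The 250 bases before the start are shown for Braf, which carries the rare element, and for Map2k2 beside it, since no annotated exon reaches into either, with GC boxes and cAMP response elements in capitals.
Braf, chr6:39725464-39725713, minus strand: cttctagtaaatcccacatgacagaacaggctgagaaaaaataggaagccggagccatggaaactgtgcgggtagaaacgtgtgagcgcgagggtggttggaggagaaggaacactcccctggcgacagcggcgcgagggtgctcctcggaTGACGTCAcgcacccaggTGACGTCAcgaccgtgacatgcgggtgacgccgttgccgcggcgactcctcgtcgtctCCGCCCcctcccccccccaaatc
Map2k2, chr10:81105665-81105914, plus strand: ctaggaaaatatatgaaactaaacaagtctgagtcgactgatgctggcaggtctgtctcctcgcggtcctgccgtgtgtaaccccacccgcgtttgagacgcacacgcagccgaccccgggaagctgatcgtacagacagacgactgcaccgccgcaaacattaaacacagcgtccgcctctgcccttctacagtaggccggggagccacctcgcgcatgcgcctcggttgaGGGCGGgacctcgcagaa
These matches describe letters only, and no measurement of factor binding was made.

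Nras (ENSMUSG00000027852.14, chr3:103058285-103067914, plus strand) encodes N-RAS, one of the RAS switches that many growth factor receptors act through. Its normalized counts were 2127, 1930 and 2037 in the air libraries (1 to 3) and 2474, 2464 and 2698 in the hyperoxia libraries (1 to 3). The 3 hyperoxia libraries all lay above the 3 air libraries. The mean rose from 2032 ± 98.6 to 2545 ± 132 (SD, n = 3 per group), a log2 fold change of 0.32 (SE 0.07, 95% interval 0.16 to 0.49) with an adjusted p of 0.0099 (limma on the log2 of the value plus 1, Benjamini-Hochberg over all 17778 genes tested). At the same threshold of 0.05, 30.5% of all genes tested were called, 14.9% higher and 15.6% lower in hyperoxia, so a single call among 6 genes is not more than the share among all genes. In tissue RNA, a higher level per cell and a larger share of cells that express the gene cannot be told apart, for this and for every other gene given here. The call was lost without air library 2 (log2 fold change 0.29, adjusted p = 0.059), and after removal of each library's trend with transcript length and GC content the log2 fold change was 0.20 (adjusted p = 0.036).

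Hras (ENSMUSG00000025499.18, chr7:141189105-141194005, minus strand) encodes H-RAS, which is abundant in the brain. Its normalized counts were 3631, 3688 and 3317 in the air libraries (1 to 3) and 3213, 4092 and 2951 in the hyperoxia libraries (1 to 3). Hyperoxia libraries 1 and 3 lay below all air libraries and hyperoxia library 2 above all of them. The mean was 3545 ± 199.7 in air against 3418 ± 598 in hyperoxia, and the fold change of -0.07 on the log2 scale (SE 0.11, 95% interval -0.32 to 0.19, adjusted p = 0.69) did not pass the test. When hyperoxia library 2 was left out, Hras was lower at -0.20 on the log2 scale with an adjusted p of 0.036, and without hyperoxia library 3 the value was 0.03.

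Hras and Nras were also compared with each other inside each library, where the size factor cancels. The log2 ratio of the Hras to the Nras normalized count was 0.77, 0.93 and 0.70 in the air libraries (1 to 3) and 0.38, 0.73 and 0.13 in the hyperoxia libraries (1 to 3). Hyperoxia library 2 lay within the range of the air libraries and the other hyperoxia libraries lay below it. The ratio went from 0.80 ± 0.12 to 0.41 ± 0.30, a difference of -0.39 (SE 0.19), and in an exact two-sided permutation test over the 6 libraries p was 0.2 (0.2 after Benjamini-Hochberg adjustment over 2 ratios), where the smallest p that 3 against 3 allows is 0.1.

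Braf (ENSMUSG00000002413.15, chr6:39603237-39725463, minus strand) encodes B-RAF, the RAF kinase with the highest basal activity and a major one in neurons. Its normalized counts were 3340, 3509 and 3666 in the air libraries (1 to 3) and 4587, 3237 and 5235 in the hyperoxia libraries (1 to 3). Hyperoxia libraries 1 and 3 lay above all air libraries, while hyperoxia library 2 lay below all of them. The mean was 3505 ± 163 in air against 4353 ± 1020 in hyperoxia, and the fold change of 0.28 on the log2 scale (SE 0.15, 95% interval -0.05 to 0.62, adjusted p = 0.17) did not pass the test. Without hyperoxia library 2 the log2 fold change was 0.48, with an adjusted p of 4.6e-04, and after removal of the length and GC trend it was -0.04 (adjusted p = 0.69). Of the 6 genes, Braf has the longest transcript (9728 bases), and its values moved most under these 2 settings.

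Map2k1 (ENSMUSG00000004936.8, chr9:64185770-64253631, minus strand) encodes MEK1, which phosphorylates ERK on both its activating sites. Its normalized counts were 4680, 5034 and 4559 in the air libraries (1 to 3) and 4322, 4220 and 4409 in the hyperoxia libraries (1 to 3). All hyperoxia libraries lay below all air libraries, by a small margin, and the hyperoxia libraries lay closer to each other than the air libraries did. The means were 4758 ± 247 and 4317 ± 94.9, with a log2 fold change of -0.14 (SE 0.07, 95% interval -0.29 to 0.01) and an adjusted p of 0.15. Groups that did not overlap were found for 2 of the 6 genes, Nras and Map2k1, and for 46.1% of all genes tested. Map2k1 was called in 0 of the 17 alternative settings, with log2 fold changes from -0.17 to -0.06.

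Map2k2 (ENSMUSG00000035027.18, chr10:81105915-81133975, plus strand) encodes MEK2, the close relative of MEK1 with the same substrates. Its normalized counts were 2349, 2501 and 2423 in the air libraries (1 to 3) and 2334, 2993 and 2360 in the hyperoxia libraries (1 to 3). Hyperoxia library 2 was above all air libraries, hyperoxia library 1 was just below all of them, and hyperoxia library 3 was at the low end of their range. The means were 2424 ± 76.3 and 2562 ± 374, and the log2 fold change of 0.07 (SE 0.10, 95% interval -0.15 to 0.29, adjusted p = 0.62) did not pass the test. Its sign turned without hyperoxia library 2 (-0.05, adjusted p = 0.56), and after removal of the length and GC trend it was 0.21, with an adjusted p of 0.031.

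The log2 ratio of the Map2k1 to the Map2k2 normalized count was 0.99, 1.01 and 0.91 in the air libraries (1 to 3) and 0.89, 0.50 and 0.90 in the hyperoxia libraries (1 to 3). Each hyperoxia library lay below each air library, libraries 1 and 3 by little and library 2 by more. The ratio went from 0.97 ± 0.05 to 0.76 ± 0.23, a difference of -0.21 (SE 0.14), with p = 0.1 in the exact permutation test, the smallest it can give here (0.2 after adjustment). The difference was -0.08 with hyperoxia library 2 left out.

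Mapk3 (ENSMUSG00000063065.13, chr7:126759601-126765819, plus strand) encodes ERK1, one of the kinases at the end of the cascade. Its normalized counts were 7855, 7640 and 7350 in the air libraries (1 to 3) and 6578, 8000 and 5219 in the hyperoxia libraries (1 to 3). Hyperoxia libraries 1 and 3 lay below all air libraries, and hyperoxia library 2 lay above all of them. The means were 7615 ± 254 and 6599 ± 1391, with a log2 fold change of -0.23 (SE 0.13, 95% interval -0.52 to 0.07, adjusted p = 0.22). Without hyperoxia library 2 the log2 fold change was -0.38 with an adjusted p of 0.0059, and after removal of the length and GC trend it was -0.05 (adjusted p = 0.68).

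**Figure D1:**
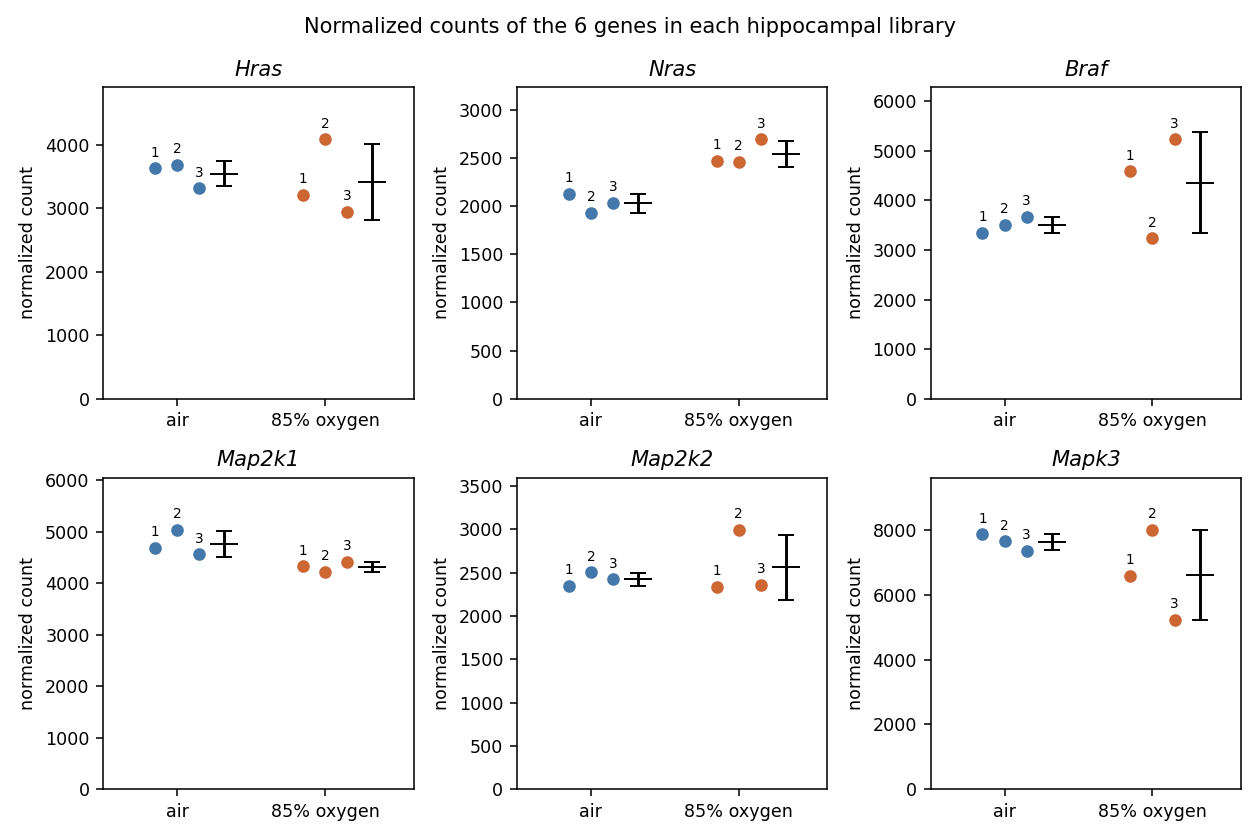
Normalized count (y axis, from 0) of each of the 6 genes in the 3 air and 3 hyperoxia libraries, with the column number above each point and the group mean ± SD beside the points. For Nras all hyperoxia libraries (2464 to 2698) lie above all air libraries (1930 to 2127), while for Hras, Braf and Mapk3 hyperoxia library 2 lies on the other side of the air libraries from hyperoxia libraries 1 and 3.

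Per kilobase of the longest annotated transcript, the normalized count in air was highest for Mapk3 (4231 ± 141), followed by Map2k1 (1953 ± 101), Hras (1254 ± 70.6), Map2k2 (1008 ± 31.7), Nras (454 ± 22.1) and Braf (360 ± 16.7). No neighbours in this order overlapped between any air libraries. On the same scale the order of the hyperoxia means was unchanged, with 3666 ± 773 for Mapk3, 1772 ± 38.9 for Map2k1, 1209 ± 211 for Hras, 1065 ± 155 for Map2k2, 569 ± 29.6 for Nras and 447 ± 105 for Braf. In hyperoxia the libraries of Hras (1043 to 1447) overlapped with those of Map2k2 (970 to 1245), and those of Braf reached from 333 to 538, just below the lowest of Nras (551). With these lengths, Mapk3 and Map2k1 stood above Hras, Nras and Braf per unit of length in both groups. Whether the longest annotated transcripts were the ones expressed was not tested, and other lengths could change the order.

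The libraries of the hyperoxia group differed more from each other than those of the air group. The SD of the log2 value was larger in hyperoxia than in air for 5 of the 6 genes, all but Map2k1, and for 71.3% of all genes tested. It reached 0.36 for Braf, 0.31 for Mapk3, 0.24 for Hras and 0.20 for Map2k2, against a median of 0.17 over all genes tested, while that of Nras was 0.07. That of Map2k1 was 0.032, not far above the 0.020 to 0.024 that the counting of its reads gives. In air it lay between 0.05 and 0.08 for the 6 genes, below the median of 0.10 over all genes.

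The distance of hyperoxia library 2 from the other hyperoxia libraries differed in sign between the genes. Its log2 value minus the mean of hyperoxia libraries 1 and 3 was 0.45 for Mapk3, 0.41 for Hras and 0.35 for Map2k2, and it was -0.60 for Braf, with -0.07 for Nras and -0.05 for Map2k1. Library 2 lay on one side of all air libraries and libraries 1 and 3 on the other for 3 of the 6 genes, Hras, Braf and Mapk3, and for 7.13% of all genes tested, a pattern that was looked for after the values of these genes had been seen. Over all genes the same difference moved with GC content and transcript length: its median went from -0.17 in the decile of genes with the lowest GC content to 0.19 in that with the highest, and from 0.19 in the decile with the shortest transcripts to -0.28 in that with the longest. Hras (55.2% GC), Mapk3 (57.6%) and Map2k2 (60.4%) lie in GC deciles 8, 9 and 10, Nras and Braf (both 42.6%) lie in decile 2, and Map2k1 (51.2%) lies in decile 6. After each library's smooth trend on length and GC content was removed, the difference was 0.27 for Hras, 0.23 for Mapk3, 0.15 for Map2k2, -0.23 for Braf, 0.08 for Nras and -0.13 for Map2k1, so it was smaller for 4 of the genes and not 0. The part of RNA quality or of library preparation in the difference was not tested.

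**Figure D2:**
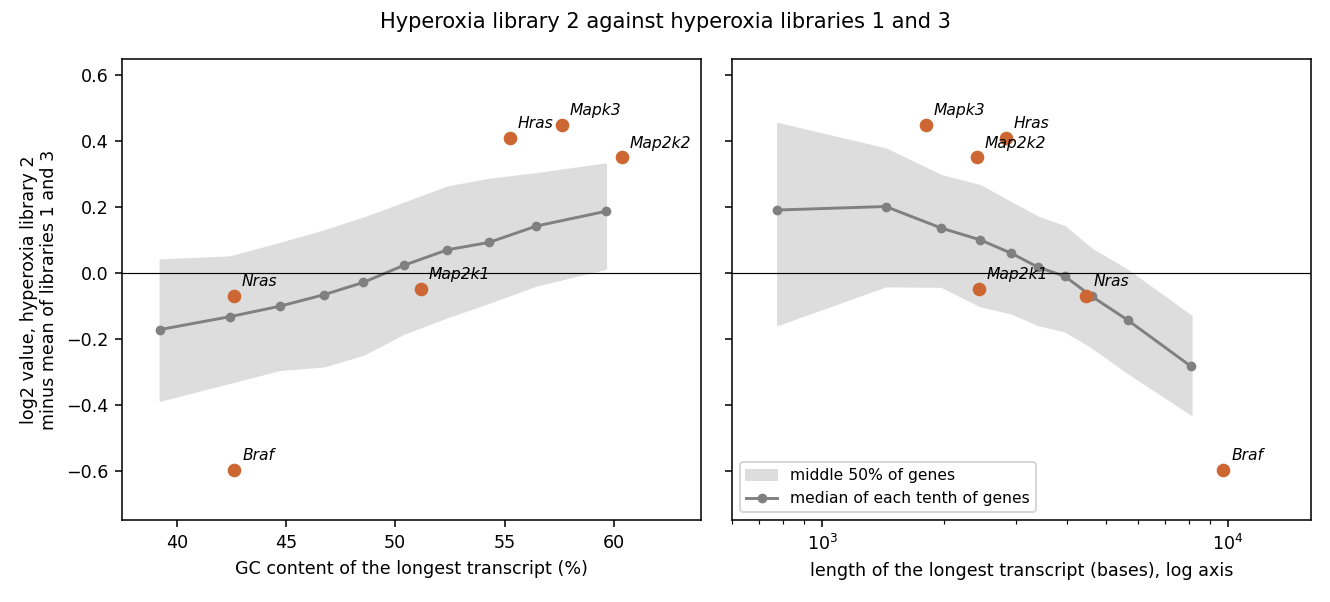
Log2 value of hyperoxia library 2 minus the mean of hyperoxia libraries 1 and 3 (y axis) against GC content in percent (left) and length in bases on a log axis (right) of the longest transcript, with the 6 genes as named points, the median of each decile of all genes as a grey line and the middle 50% of genes as a band. Mapk3, Hras and Map2k2 lie at 0.35 to 0.45 and Braf at -0.60, outside the band, on the same side as the median of genes with like GC content and length.

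The fold change of hyperoxia over air also moved with both properties over all genes. Its median on the log2 scale went from 0.15 in the decile of genes with the lowest GC content to -0.12 in that with the highest, and from -0.17 for the shortest to 0.24 for the longest transcripts. The median over all genes was -0.01, and the median over the 6 genes was 0.00. Without hyperoxia library 2, 4 of the 6 genes were called (Nras and Braf higher, Hras and Mapk3 lower), where 43.6% of all genes were called. With the length and GC trend removed, 2 of the 6 were called, Nras and Map2k2, both higher, where 34.9% of all genes were called. Nras was higher under each of the 17 alternative settings, with log2 fold changes from 0.20 to 0.36, and was called in 16 of them.

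**Figure D3:**
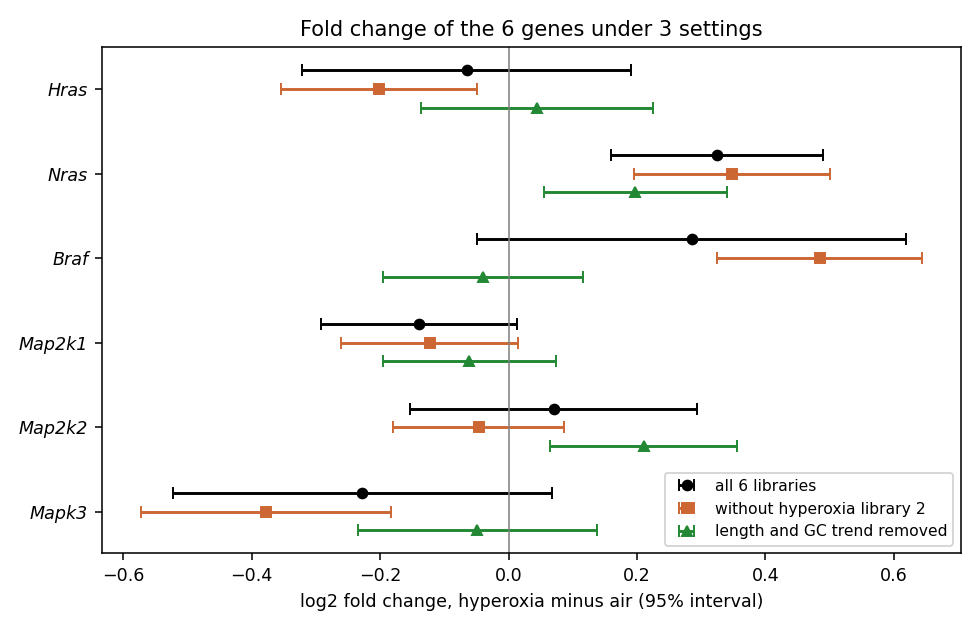
Log2 fold change of hyperoxia over air (x axis) with its 95% interval for each of the 6 genes, in all 6 libraries (black), without hyperoxia library 2 (orange) and after removal of the length and GC trend (green). The interval of Nras lies above 0 in each of the 3, and those of Hras, Braf, Map2k2 and Mapk3 lie off 0 in only 1 of them.

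The remaining genes of the pathway were taken from lists of its upstream and downstream parts, which were made with earlier results of these data known. Of 83 listed genes, the 6 included, 82 were tested, of which 17 were higher and 15 lower in hyperoxia (39.0%, against 30.5% of all genes tested), and their median log2 fold change was -0.01, the same as that of all genes. Without the 6 genes, 31 of 76 (40.8%) were called. Of the 32 called genes, 24 were also called in the same direction after removal of the length and GC trend, 32 without hyperoxia library 2, and 18 to 25 when any other library was left out, 18 without air library 1.

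Of the 8 RAS-type GTPases tested, 3 rose and 2 fell in hyperoxia (62.5%, against 30.5% of all genes tested). Beside Nras, Rras2 rose (mean 1452 to 1801, log2 fold change 0.31, adjusted p = 0.015) and so did Rap1b (2837 to 3335, 0.23, adjusted p = 0.029), which encodes a RAS relative that can activate B-RAF. Mras, which encodes the RAS relative that assembles a phosphatase complex acting on RAF, fell from 9762 to 8133 (log2 fold change -0.27, adjusted p = 0.028). The calls of Mras and Rap1b held in 10 and 11 of the 17 alternative settings, and that of Rras2 in 15. The 5 calls of this list became 0 without air library 2, 1 without air library 1, 2 when air library 3, hyperoxia library 1 or hyperoxia library 3 was left out, 2 in limma without the trend, and 7 without hyperoxia library 2.

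Of the 8 exchange factors that load RAS with GTP, 1 rose and 1 fell. Rasgrf1, whose product is switched on by calmodulin when calcium enters neurons, had normalized counts of 19298, 18274 and 19125 in air and 13867, 12573 and 12256 in hyperoxia, so that no hyperoxia library came near the air range (log2 fold change -0.55, adjusted p = 0.0012). Rasgrp2, whose product responds to calcium and acts mainly on RAP proteins, had 623, 544 and 611 in air and 990, 1016 and 754 in hyperoxia (log2 fold change 0.62, adjusted p = 0.0053). By the rule for naming, the groups did not overlap in any called gene named from these lists. Over all genes tested, the groups of 46.1% did not overlap. The call of Rasgrp2 was lost with the length and GC trend removed (log2 fold change 0.40, adjusted p = 0.060), which left 1 call in the list, and the list had 5 calls without hyperoxia library 2.

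Of the 13 GTPase-activating and SPRED proteins, which turn RAS off or keep RAF from it, 3 rose and 2 fell. That is 38.5%, against 30.5% of all genes tested. Spred3 fell from a mean of 2803 to 2001 (log2 fold change -0.48, adjusted p = 0.0027), whereas its relative Spred1, which recruits neurofibromin to the membrane, rose from 3308 to 4393 (0.41, adjusted p = 0.0044). Rasa2 rose as well (906 to 1152, 0.34, adjusted p = 0.014), but its log2 fold change was 0.06 (adjusted p = 0.47) with the length and GC trend removed, and its call was also lost without air library 1, air library 3 or hyperoxia library 1. The 5 calls of this list became 3 when any of these 3 libraries was left out.

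Among the 10 adaptors that link receptors to RAS, 3 rose and 1 fell (40.0%, against 30.5% of all genes tested). Shc3, which encodes a neuronal SHC adaptor, had the largest log2 fold change of all the listed genes, with 514, 415 and 563 in air and 1151, 785 and 1341 in hyperoxia (1.11, SE 0.19, adjusted p = 0.0027). Gab2, which encodes a docking protein for the phosphatase SHP2, rose from 594 to 943 (0.67, adjusted p = 0.0010), and Ptpn11, which encodes SHP2 itself, rose from 3678 to 4972 (0.43, adjusted p = 0.0060). Grb2, the adaptor that carries the exchange factor SOS to receptors, fell from 5713 to 4927 (-0.21, adjusted p = 0.041) but was called in only 7 of the 17 alternative settings.

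Of the 7 RAF, MEK and ERK kinases tested, Braf, Map2k1, Map2k2 and Mapk3 included, limma called 0, with 0 at an unadjusted p under 0.05. On the recovered reads, edgeR called 0 (0 unadjusted) and DESeq2 called 0 (1 unadjusted). Of the 7 kinases, 3 were called without hyperoxia library 2 and 2 with the length and GC trend removed. These counts stand beside 30.5% of all genes called with all libraries, 43.6% without hyperoxia library 2 and 34.9% with the trend removed.

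Of the 13 tested scaffolds and regulators that act on RAF, MEK and ERK, 1 rose and 4 fell. That is 38.5%, against 30.5% of all genes tested. Ksr1, which encodes the scaffold that holds RAF, MEK and ERK together, fell from 4343 to 3485 (log2 fold change -0.32, adjusted p = 0.012). Pebp1, which encodes the RAF kinase inhibitor protein, fell from 8589 to 6486 (-0.41, adjusted p = 0.0080), and Ywhaz, a 14-3-3 protein that binds phosphorylated RAF, fell from 45142 to 36717 (-0.30, adjusted p = 0.022). Iqgap1, a scaffold that also binds actin regulators, rose from 822 to 1200 (0.54, adjusted p = 0.0079). The call of Ywhaz was lost after quantile normalization (log2 fold change -0.07, adjusted p = 0.41) and without air library 1, air library 2 or hyperoxia library 1, and that of Ksr1 without air library 3. The 5 calls became 3 when any air library or hyperoxia library 1 was left out.

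Of the 13 kinases and transcription factors listed downstream of ERK, directly or through another protein, 5 rose and 3 fell. That is 61.5%, against 30.5% of all genes tested. Elk1, which encodes the ETS factor that ERK phosphorylates, had 2857, 2765 and 2809 in air and 1863, 1970 and 1864 in hyperoxia (log2 fold change -0.57, adjusted p = 7.0e-04). Srf, which encodes the serum response factor with which Elk1 binds DNA, had 3007, 2803 and 2882 in air and 1986, 2083 and 1984 in hyperoxia (-0.52, adjusted p = 0.0010). In both, hyperoxia library 2 lay close to the other hyperoxia libraries, and both genes were called in all 17 alternative settings. Rps6ka6, which encodes the kinase RSK4, rose from 135 to 253 (0.90, adjusted p = 0.0011), and Rps6ka5, which encodes MSK1, a kinase of CREB and histone H3, rose from 325 to 481 (0.56, adjusted p = 0.011). The call of Rps6ka5 was lost without air library 1 (adjusted p = 0.055). The 8 calls became 5 when air library 1, air library 2 or hyperoxia library 1 was left out.

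Among 10 transcripts whose levels follow ERK activity in many cells, 1 rose and 2 fell. Dusp6, which encodes the phosphatase that removes the activating phosphates of ERK, fell from 2610 to 1952 (log2 fold change -0.42, adjusted p = 0.0053), and Spry4, which encodes a Sprouty inhibitor of the pathway, fell from 665 to 542 (-0.29, adjusted p = 0.032). Epha2, which encodes an ephrin receptor, rose from 53.1 to 90.2 (0.79, adjusted p = 0.026), from low counts. Dusp6 was called in all 17 alternative settings, Epha2 in 15 and Spry4 in 12, and the 3 calls became 1 without air library 1.

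The kinases of the JNK, p38 and ERK5 cascades, which run beside the ERK cascade, were listed for comparison. Of 12 tested, 2 rose and 4 fell, and the count became 3 when any air library or hyperoxia library 1 was left out and 9 without hyperoxia library 2. Mapk8 and Mapk9, which encode JNK1 and JNK2, rose from 3619 to 4632 (log2 fold change 0.35, adjusted p = 0.0090) and from 5265 to 6781 (0.36, adjusted p = 0.0053). Map2k7, which encodes the JNK kinase MKK7, fell from 1998 to 1541 (-0.38, adjusted p = 0.0041), with 35.2% of its exonic length shared with the annotated gene Gm49320 on the same strand. Mapk7, which encodes ERK5, fell from 1966 to 1542 (-0.36, adjusted p = 0.014), with its call kept in 13 of the 17 alternative settings. The call of Mapk8 was lost with the length and GC trend removed (log2 fold change 0.12, adjusted p = 0.18).

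**Figure D4:**
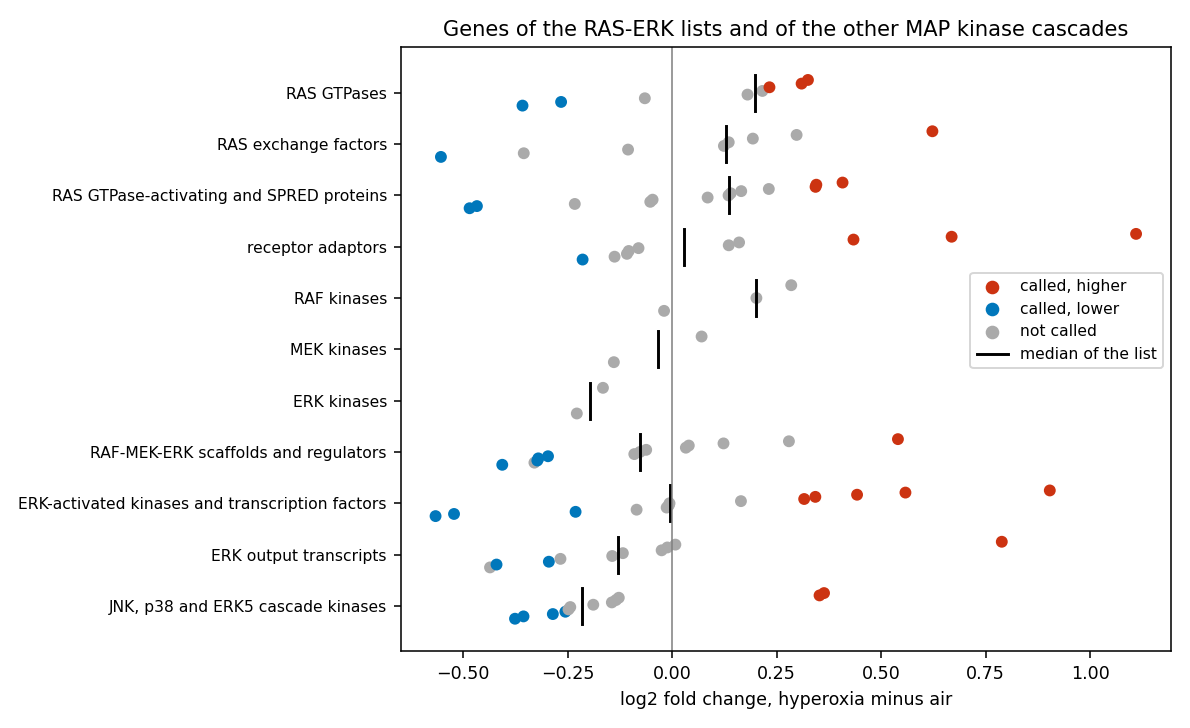
Log2 fold change of hyperoxia over air (x axis) for each tested gene of the pathway lists (rows), coloured by whether the gene was called higher or lower at an adjusted p under 0.05, with the median of each list as a black line. The RAF, MEK and ERK kinases lie between -0.23 and 0.28 with no call, while Shc3 at 1.11 and Rps6ka6 at 0.90 are the highest of the called genes.

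The genes nearest to each of the 6 in their pattern over the 6 libraries were found by the root mean square difference between log2 values, each centred on its own mean, among 17777 other tested genes. Those reported were Rab11b (0.0169) and Atpif1 (0.0189) for Hras, Eif4g2 (0.0307) and Phf19 (0.0334) for Nras, Nfat5 (0.0206) and Uggt2 (0.0228) for Braf, Tmed7 (0.0182) and Ppp1r21 (0.0204) for Map2k1, Ascc1 (0.0155) for Map2k2, and Fndc10 (0.0288) and G6pc3 (0.0301) for Mapk3. The 6 genes themselves varied about their own means by 0.08 (Map2k1) to 0.25 (Braf) on this scale.

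Markers of some cell types moved with the groups as the columns name them, and 30.5% of all genes tested were called. Of 5 markers of glutamatergic neurons, 4 fell and 1 rose, and their summed normalized count was 297722 to 316308 in air and 198268 to 218874 in hyperoxia, with no overlap. Those that fell include Slc17a7 and Camk2a, which encode VGLUT1 and CAMKIIA and whose mRNA the paper reports as increased with hyperoxia. Of 6 oligodendrocyte markers, 5 fell (211426 to 321844 in air, 144727 to 177382 in hyperoxia), and of 4 markers of oligodendrocyte precursors, 2 rose (11415 to 13228 in air, 14641 to 15225 in hyperoxia). Of 5 tested thalamus markers, 3 rose (3372 to 3572 in air, 5273 to 6394 in hyperoxia), and of 6 endothelial markers, 3 rose and 1 fell (6572 to 7023 in air, 7604 to 8702 in hyperoxia). Of 5 markers of dentate granule cells, 3 fell (15761 to 16322 in air, 9667 to 15467 in hyperoxia), and choroid plexus markers, of which 0 of 5 tested were called, summed to 8115 in hyperoxia library 3 and to 457 to 1409 in the other libraries. The markers of interneurons (1 higher and 1 lower of 6), astrocytes (1 and 2 of 6), microglia (1 and 0 of 6) and red blood cells (1 and 1 of 5) completed the lists, and no marker was at 0 in all libraries. Sums overlapped for interneurons (21925 to 25293 in air, 20111 to 26605 in hyperoxia) and astrocytes (102217 to 105373 in air, 92887 to 105304 in hyperoxia). They also overlapped for red blood cells (1748 to 2835 in air, 2527 to 4042 in hyperoxia), and not for microglia (9740 to 9766 in air, 10014 to 11190 in hyperoxia). The part of these marker shifts in the levels of the RAS to ERK genes was not tested.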

How the data were processed

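The deposited signal is a normalized count, for which the authors scaled the reads on each gene by 1 DESeq2 size factor per library. The submitters' processing notes name FastQC, STAR 2.5.3a, HTSeq and DESeq2. Genome build, annotation and the strand setting of the counting: not given in the sources used here. In every library, 100% of values lay within 0.01 of whole multiples of 1 read, so the reads were recovered. A second deposited table holds the authors' own comparison (fold changes and p-values) and was not used.

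Genes with a mean of at least 10 were tested with limma 3.58.1 (R 4.3.3, mean-variance trend) on log2 of the value plus 1, hyperoxia minus air, two-sided, Benjamini-Hochberg adjusted over 17778 genes, threshold 0.05. This scale understates the change of low genes. Paralog ratios had exact permutation tests (scipy 1.17.1). As alternatives, the pseudocount was set to 0.5 and 5, the filter was dropped or raised to a mean of 50, values were scaled by TMM or quantiles, and further fits used limma without the trend, edgeR 4.0.16 (quasi-likelihood) and DESeq2 1.42.0 on the recovered reads, 5 of the 6 libraries, a block on column number, and subtraction of a smooth length and GC trend per library (mgcv 1.9.3, 17735 genes). Methods were tested on simulated counts without a length or GC trend and without an outlying library, so those features of the data were not covered. The p-values measure the spread between animals of 1 experiment.

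Positions, lengths and GC content came from GENCODE M21 (GRCm38), which held 99.7% of the gene identifiers. The genes and lists were chosen with earlier results of these data known, and the motifs, the sequence windows and the pattern of hyperoxia library 2 were chosen with the values in view. Named from each list were up to 4 called genes with the smallest adjusted p whose groups did not overlap or, with none called, the gene with the smallest adjusted p, and for each of the 6 genes the 2 nearest profiles. Some listed genes and nearest profiles are counted but not reported by name here. Python 3.11.15, pandas 2.3.3, numpy 2.4.6 and matplotlib 3.10.9 were used.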

Additional observations from a re-analysis of the deposited data

How the results depend on the processing

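Of the 17 alternatives, the scaling, pseudocount, filter and tool settings changed no call among the 6 genes. With 1 library left out, the calls ranged from 0 to 4 of 6 genes, from 18 to 45 of the 82 pathway genes and from 3048 to 7756 of all genes (5425 with all libraries). The log2 fold changes then ranged from -0.20 to 0.034 for Hras (0.034 without hyperoxia library 3), 0.28 to 0.36 for Nras, 0.14 to 0.48 for Braf, -0.17 to -0.098 for Map2k1, -0.046 to 0.13 for Map2k2 (-0.046 without hyperoxia library 2) and -0.38 to -0.069 for Mapk3. The difference in the log2 ratio ranged from -0.55 to -0.25 for Hras over Nras and from -0.28 to -0.08 for Map2k1 over Map2k2. Removal of the length and GC trend gave 2 calls among the 6 genes, turned Hras to 0.044 and Braf to -0.040, took Map2k2 to 0.21 and past the threshold, and gave ratio differences of -0.15 and -0.27. The cause was not tested. Removal of the trend in each library also takes out any difference between the groups that follows length or GC content.

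Libraries of the 2 groups with the same column number showed little shared deviation (correlations of -0.08, 0.13 and 0.10), and the main test used no pairing by number. These correlations cannot exclude a shared litter or batch. With a replicate block on it, 1 of the 6 genes, 37 of 82 pathway genes and 6211 genes in all were called. With 3 mice per group, the width of the 95% intervals followed the spread of the hyperoxia libraries, from -0.29 to 0.01 for Map2k1 to -0.05 to 0.62 for Braf, so for Braf a log2 change of the size called for Nras could not be told from 0.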
